A study of Rattus norvegicus with 26 samples.

Results

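The transcripts of 9 regulators of the switch between epithelial and mesenchymal cell states, and the mesenchymal filament gene *Vim*, were followed here while rat multipotent adult progenitor cells (rMAPCs) were turned towards smooth muscle. The 10 genes are *Zeb1*, *Zeb2*, *Snai1*, *Snai2*, *Twist1*, *Twist2*, *Prrx1*, *Ovol1*, *Grhl2* and *Vim*. They were found by their name on the array, which gave 14 of its 41012 gene probes and 10 of the 15526 genes with a symbol. All 10 had a probe whose signal was well above background on every array of some group, so none was left out. Each gene is described by its brightest probe, taken as that with the highest mean over the 26 arrays, and the other 4 probes are given where they bear on a value. Levels are log2 intensities after quantile normalization, and a level of 1 gene cannot be set against that of another, because probes differ in how strongly they bind.

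The series compared 2 rMAPC lines, Cl19 and 3c3, on d0, d2, d4 and d6 of treatment with TGFβ1 and PDGF-BB in basal rMAPC medium, with 3 arrays per line and day. Both lines were *Oct4*-expressing bone marrow cells of female Fischer rats, Cl19 from an animal of age 3 week and 3c3 from embryonic day 18. No untreated samples of later days were among those analysed, so d0 is the only comparison. Each line is a clone, and the labels do not say whether its 3 replicates came from separate cultures, so p-values measure only the spread between these samples, which may be technical. The last group, called Prim, held 2 arrays of commercial RNA that the labels name as rat aortic and the study as primary smooth muscle, with no match to the lines in donor or culture.

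ZEB and SNAIL proteins are zinc finger repressors that bind E-box sequences in the promoters of junction genes, E-cadherin among them, and TWIST proteins are basic helix-loop-helix factors that act in the same direction. PRRX1 is a homeobox factor of mesenchymal tissue. GRHL2 and OVOL1 work the other way, as GRHL2 activates junction genes and OVOL proteins repress mesenchymal factors such as ZEB1. Vimentin, the product of *Vim*, is the intermediate filament of mesenchymal cells. TGFβ1 is known as a strong inducer of the passage from epithelium to mesenchyme in many cell types.

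The 6 letters CAGGTG, or CACCTG on the other strand, are the E-box that ZEB and SNAIL proteins prefer, and they were searched for in the RefSeq promoters of build GRCr8, each reaching from 250 bases before to 50 bases after the annotated start. The table held 7 of the 10 genes, and *Snai2*, *Ovol1* and *Grhl2* were not among them. The letters were present in 17 of 19 promoters of epithelial structural genes (89.5%), which are junction, keratin, protease and other genes. They were in 3 of 17 promoters of mesenchymal structural genes (17.6%) and in 18.8% of all 33469 promoters. Of the 7 promoters of the set, *Vim* included, those of *Zeb1* and *Snai1* held them. The lists hold more genes than were searched, 33 epithelial and 29 mesenchymal structural genes. Among those without a promoter here were *Cdh1*, the gene of E-cadherin, and *Krt19*. A match is a description of the letters and does not show binding. The windows below are printed because *Zeb1* and *Snai1* are members that changed and the others are epithelial genes whose levels are given further on, and each shows 1 match per gene with the E-box in capitals and 10 bases on either side:
Zeb1, 95 bases before the start, chr17:56810733-56810758, minus strand: tgtcgtaaacCAGGTGcggtggggag
Snai1, 142 bases before the start, chr3:176667324-176667349, plus strand: agcccaggcgCACCTGctctgatccc
Epcam, 165 bases before the start, chr6:12649828-12649853, minus strand: gggcggcgcgCACCTGgagagggggt
Krt8, 214 bases before the start, chr7:135010538-135010563, minus strand: ctgctgccctCACCTGagtcctgtcc
Cldn6, 16 bases before the start, chr10:13215782-13215807, plus strand: ccttccccctCACCTGcaggcgcgga
Cldn7, 17 bases before the start, chr10:55188643-55188668, plus strand: aggtgcgccgCACCTGttcgcccgca
The *Cldn7* promoter held 5 matches, that of *Cldn6* 3 and that of *Zeb1* 2. The promoter of the epithelial gene *Krt18* was also in the table and gave no such window. A motif of grainyhead proteins, AACNNGTT on either strand, was in none of the 7 promoters of the set, in 3 of the 19 epithelial promoters and in 4.23% of all promoters.

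A feature is called well above background by the scanner software, and between 43.2% and 61.4% of features were so on an array. The 4 arrays of replicate 3 of 3c3 had a higher background, with negative controls of 28.3 to 44.5 intensity units against 10.9 to 14.0 on the other 22 arrays. The array labelled Cl19 d2 replicate 1 lay nearer to the 3 arrays of 3c3 d2 (root mean square distance of 0.382 to 0.538 on the log2 scale) than to the other arrays of its own group (0.876 and 0.917). It was kept under its label, and the d2 changes of *Grhl2* and *Ovol1* in Cl19 are given without it as well. The d2 calls of *Zeb1* and *Vim* in Cl19 held under all 15 alternatives, its omission among them. Each slide carried the 4 days of 1 replicate of 1 line, with a day always at the same place on the slide, and the lines and Prim were scanned on 3 different days. Day and slide position, and line and scan day, therefore cannot be told apart. In these bulk samples, fewer cells that carry a transcript and less of it per cell cannot be told apart either.

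In Cl19, 7 of the 10 genes differed between d6 and d0 at an adjusted p below 0.05 (limma with Benjamini-Hochberg adjustment over 24442 probes), where 52.2% of all probes did. *Grhl2*, *Ovol1*, *Twist1* and *Twist2* rose, 4 of 10 against 22.0% of all probes, and *Zeb1*, *Vim* and *Snai1* fell, 3 of 10 against 30.3%. *Grhl2* and *Ovol1* entered the test only through groups of d4 or d6 where they are high, so their share of these counts is no support. Without them, *Twist1* and *Twist2* rose. In 3c3, *Zeb1* and *Vim* alone passed, 2 of 10 against 48.2% of all probes, and both fell, where 28.6% of all probes fell and 19.7% rose. *Zeb2*, *Snai2* and *Prrx1* entered the test only through Prim and had no signal well above background in the lines, nor had *Ovol1* in 3c3. A call was hardly possible for them there. Low shares of the 10 genes, here and below, therefore cannot be read as less change than over all probes. Counted like the 10 genes, by the brightest probe of each gene, 57.6% of all genes passed in Cl19 and 53.0% in 3c3. The median change of the 10 genes was 0.10 in Cl19 and -0.01 in 3c3 on the log2 scale, beside -0.20 and -0.21 over all probes. The share of higher changes among the called probes was 42.1% in Cl19 and 40.7% in 3c3, and 55.7% and 56.4% in the authors' table without normalization between arrays.

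**Figure D1:**
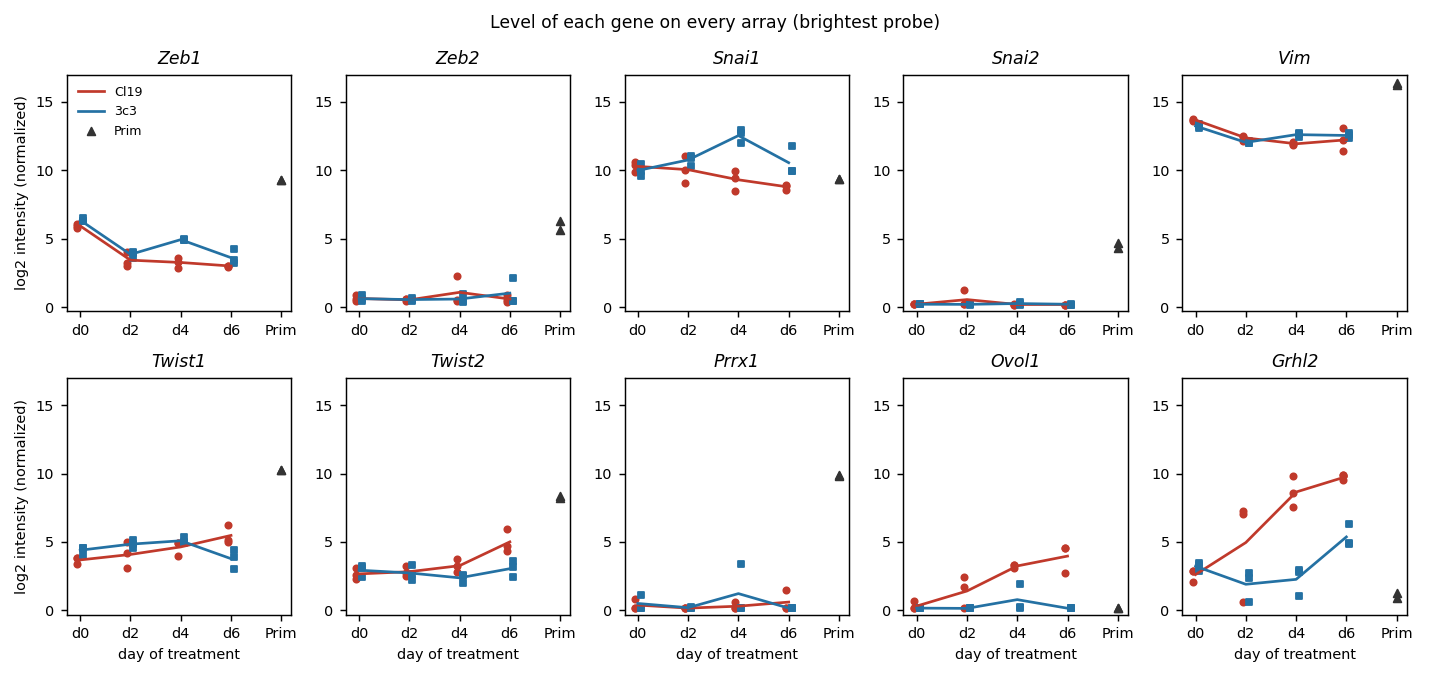
Level of each of the 10 genes (log2 normalized intensity of the brightest probe) on every array, by day of treatment, for Cl19 (circles), 3c3 (squares) and Prim (triangles). Points are arrays and lines join the means of 3 arrays. *Zeb1* fell between d0 and d2 in both lines, *Grhl2* and *Ovol1* rose in Cl19, and *Zeb2*, *Snai2* and *Prrx1* stood above 4 in Prim only.

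*Zeb1*, a repressor of E-cadherin, fell early in both lines. In Cl19 its log2 intensity was 5.94, 5.82 and 6.05 on d0, 4.04, 3.26 and 3.01 on d2, 3.33, 2.89 and 3.59 on d4, and 3.03, 3.02 and 2.96 on d6. In 3c3 it was 6.32, 6.49 and 6.28 on d0, 3.60, 3.93 and 4.04 on d2, 4.98, 4.92 and 4.92 on d4, and 3.42, 3.21 and 4.22 on d6. No later array of either line reached the lowest d0 array of that line. By d2 the level had fallen by 2.50 on the log2 scale in Cl19 (SE 0.25, adjusted p = 4.7e-07) and by 2.51 in 3c3 (SE 0.25, adjusted p = 5.2e-07), a 5.66-fold and a 5.68-fold fall. After d2, no step of Cl19 passed, whereas in 3c3 the transcript rose again by 1.08 from d2 to d4 (SE 0.25, adjusted p = 0.010) and fell by 1.32 from d4 to d6 (SE 0.25, adjusted p = 0.0023). By d6 it was 7.63-fold below d0 in Cl19 (log2 change -2.93, SE 0.25, adjusted p = 9.1e-09). In 3c3 it was at least 6.70-fold below d0 (log2 change -2.74, SE 0.25, adjusted p = 4.0e-08), a bound because only 2 of the 3 d6 arrays had a signal well above background. The d6 change did not differ detectably between the lines, with a difference of -0.19 and a 95% interval from -0.91 to 0.54. The fall kept its call under all 16 alternatives in each line, although an added offset of 50 intensity units, which compresses dim values, reduced it to -0.87 in Cl19 and -1.04 in 3c3. The probe lies on chromosome 17 at 60177705 to 60177764 of rn4, by the array's own annotation.

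Vimentin was among the bright transcripts and fell at d2 in both lines. In Cl19 *Vim* stood at 13.75, 13.67 and 13.63 on d0, 12.15, 12.42 and 12.54 on d2, 12.09, 11.90 and 11.83 on d4, and 11.41, 13.08 and 12.20 on d6. In 3c3 it stood at 13.22, 13.40 and 13.11 on d0, 11.97, 12.17 and 11.97 on d2, 12.66, 12.72 and 12.45 on d4, and 12.71, 12.33 and 12.60 on d6. All d0 arrays were above all later arrays of the same line. The d2 fall was 1.31 in Cl19 (SE 0.26, adjusted p = 8.8e-04) and 1.20 in 3c3 (SE 0.26, adjusted p = 0.0022). By d6 the level was 2.73-fold below d0 in Cl19 (log2 change -1.45, SE 0.26, adjusted p = 8.5e-05) and 1.62-fold below in 3c3 (log2 change -0.70, SE 0.26, adjusted p = 0.031). The 3c3 call was lost when any replicate of 3c3 (adjusted p of 0.082, 0.25 and 0.085) or replicate 3 of Cl19 (adjusted p = 0.057) was left out. The methods' test of pairs of groups, run here without pairing, gave an adjusted p of 0.077 for the fall in Cl19.

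*Snai1*, which encodes SNAIL and is a direct target of TGFβ signalling in many cells, rose in 3c3 by d4 and fell in Cl19 by d6. In Cl19 its levels were 10.63, 9.87 and 10.37 on d0, 11.04, 9.11 and 9.99 on d2, 9.96, 8.52 and 9.45 on d4, and 8.91, 8.88 and 8.54 on d6. In 3c3 they were 10.43, 9.58 and 9.97 on d0, 10.32, 11.07 and 10.88 on d2, 11.99, 12.93 and 12.72 on d4, and 9.98, 9.96 and 11.75 on d6. The 3c3 arrays of d4 were the highest of the series for this probe and lay above every array of the other days of that line. From d0 to d4, *Snai1* rose by 2.55 in 3c3 (SE 0.48, adjusted p = 4.1e-04), a 5.86-fold rise that kept its call under all 15 alternatives. From d4 to d6 it fell by 1.98 (SE 0.48, adjusted p = 0.013), a call that was lost without replicate 1 (adjusted p = 0.060) or replicate 2 of 3c3 (adjusted p = 0.24). In Cl19 it fell by 1.51 from d0 to d6 (SE 0.48, adjusted p = 0.013), and this call was lost without replicate 3 of Cl19 (log2 change -1.35, adjusted p = 0.12). A second *Snai1* probe passed background on 8 arrays only and was not tested. In 3c3 that probe read 2.00, 3.27 and 1.39 on d0 and 3.73, 6.14 and 3.33 on d4, and in Cl19 it read 2.18, 3.03 and 2.57 on d0 and 0.36, 1.63 and 0.31 on d6.

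*Grhl2*, an activator of junction genes, had the largest d6 change of the 10 genes in Cl19. In Cl19 the brightest probe read 2.10, 2.90 and 2.85 on d0, 0.59, 7.27 and 7.03 on d2, 7.56, 9.85 and 8.56 on d4, and 9.53, 9.88 and 9.93 on d6. In 3c3 it read 3.47, 3.34 and 2.87 on d0, 0.61, 2.75 and 2.37 on d2, 2.93, 2.80 and 1.07 on d4, and 6.35, 4.83 and 4.91 on d6. The d2 value of 0.59 belongs to the array that lay nearer to 3c3, and the other Cl19 d2 arrays were already far above their d0 level. By d6 *Grhl2* was at least 124-fold above d0 in Cl19 (log2 change 7.16, SE 1.16, adjusted p = 3.2e-05), with 2 of 3 d0 arrays well above background. This probe entered the test only through d4 and d6 of Cl19 and d6 of 3c3, where it is high. Its rise is therefore a description and no support. In 3c3 the 3 arrays of d6 were all above those of d0, by 2.88, 1.49 and 2.04 on the 3 slides, and the mean change of 2.14 did not pass (SE 1.16, adjusted p = 0.14). Without the array labelled Cl19 d2 replicate 1, which enters the shared estimate of spread, the same 3c3 change had an adjusted p of 0.0062. Leaving that array out also brought the d2 rise of Cl19 from 2.34 (SE 1.16, adjusted p = 0.16) to 4.53 (adjusted p = 4.9e-05), and took the d4 to d2 step from 3.69 (adjusted p = 0.029) to 1.51 (adjusted p = 0.16). The second *Grhl2* probe rose by 3.54 in Cl19 (SE 0.56, adjusted p = 2.7e-05), a rise of at least 3.28-fold, while none of the 3c3 arrays had a signal well above background for it. It entered the test only through d6 of Cl19, so this rise is no support either.

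*Ovol1*, whose product represses mesenchymal factors, gave a signal well above background in Cl19 only. Its levels in Cl19 were 0.15, 0.15 and 0.67 on d0, 0.15, 1.70 and 2.41 on d2, 3.10, 3.33 and 3.32 on d4, and 4.58, 2.74 and 4.59 on d6. In 3c3 the highest of the 12 values was 1.96, on d4 of replicate 3. All 6 Cl19 arrays of d4 and d6 passed background, and 1 of d2. The d6 level in Cl19 was at least 3.01-fold above d0 (log2 change 3.64, SE 0.51, adjusted p = 5.7e-06), a bound because no d0 array passed background. The gene entered the test only through d4 and d6 of Cl19, where it is high, so its rise there is a description and no support. With dim values raised to the lowest signal well above background, the change was 1.59 (adjusted p = 0.017). With an offset of 50 intensity units it was 0.40 (adjusted p = 4.5e-05).

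*Twist1* and *Twist2*, the genes of the TWIST factors, rose in Cl19 by d6. *Twist1* read 3.83, 3.38 and 3.85 on d0, 4.99, 3.08 and 4.19 on d2, 4.93, 4.01 and 4.96 on d4, and 6.25, 5.17 and 5.03 on d6 in Cl19. In 3c3 it read 4.55, 4.07 and 4.59 on d0, 4.83, 4.56 and 5.11 on d2, 5.38, 4.99 and 4.91 on d4, and 3.92, 3.05 and 4.38 on d6. All Cl19 arrays of d6 were above all those of d0, by 3.47-fold on average (log2 change 1.80, SE 0.42, adjusted p = 0.0012), or 0.54 on the log2 scale with the offset of 50. By d4 the change was 0.95 (SE 0.42, adjusted p = 0.069), which passed under 6 of 15 alternatives, the replicate block (adjusted p = 0.0083) and the authors' table (adjusted p = 0.0029) among them, and the step from d4 to d6 was 0.85 (adjusted p = 0.27). In 3c3 the d6 mean was 0.62 below d0 (SE 0.42, adjusted p = 0.23), and the fall of 1.31 from d4 to d6 was at the threshold (SE 0.42, adjusted p = 0.0497). That step lost its call when replicate 1, 2 or 3 of 3c3 (adjusted p of 0.22, 0.36 and 0.091) or replicate 3 of Cl19 (adjusted p = 0.081) was left out, and without the filter on dim probes (adjusted p = 0.081). The second *Twist1* probe gave 2.65 in Cl19 (SE 0.52, adjusted p = 2.6e-04) and -1.25 in 3c3 (SE 0.52, adjusted p = 0.054).

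*Twist2* read 2.60, 2.32 and 3.09 on d0, 3.24, 2.71 and 2.53 on d2, 2.80, 3.26 and 3.74 on d4, and 5.96, 4.34 and 4.72 on d6 in Cl19. In 3c3 its 12 values lay between 2.03 and 3.60 on all days. The Cl19 arrays of d6 stood above all other arrays of the lines for this gene. The rise by d6 was at least 4.90-fold in Cl19 (log2 change 2.34, SE 0.40, adjusted p = 5.3e-05, or 0.51 with the offset of 50), with 2 of 3 d0 arrays well above background, and 1.74 of it came between d4 and d6 (SE 0.40, adjusted p = 0.011). Without replicate 1 of Cl19 that last step was 1.03 (adjusted p = 0.31). In 3c3 the d6 change was 0.11, with a 95% interval from -0.72 to 0.94. A second *Twist2* probe passed background on none of the 26 arrays.

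*Zeb2*, *Snai2* and *Prrx1* gave no signal well above background in the lines. *Zeb2* lay between 0.39 and 2.30 over the 24 arrays of the lines, *Snai2*, which encodes SLUG, between 0.19 and 1.25, and *Prrx1* between 0.16 and 3.36. The highest *Prrx1* value was on the d4 array of 3c3 replicate 3, a slide with higher background. None of the 3 genes had a change with an adjusted p below 0.05 at d6 in either line.

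**Figure D2:**
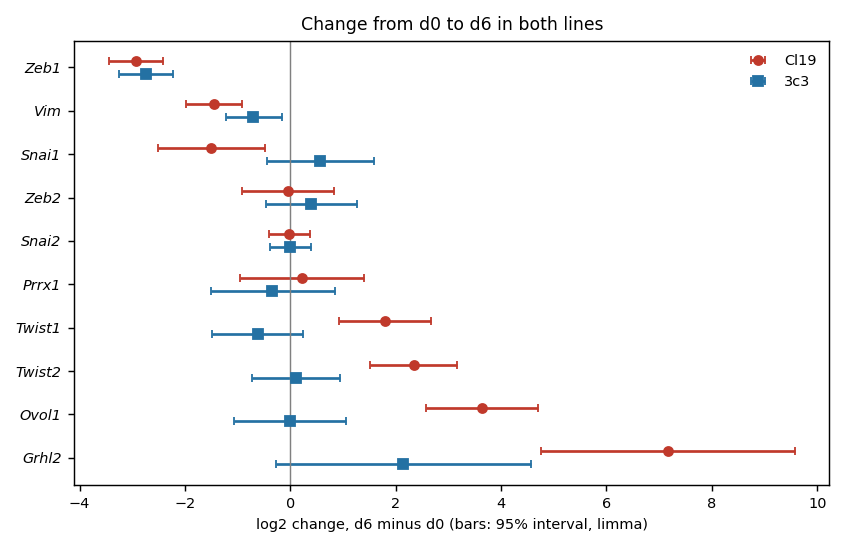
Change from d0 to d6 (log2) of each gene in Cl19 (circles) and 3c3 (squares), with 95% intervals from the limma fit. *Zeb1* and *Vim* lie below 0 in both lines, whereas *Twist1*, *Twist2*, *Ovol1* and *Grhl2* have intervals above 0 in Cl19 only.

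A test over all 4 days gave the same 7 genes in Cl19 as the d6 comparison (*Zeb1*, *Vim*, *Snai1*, *Grhl2*, *Ovol1*, *Twist1*, *Twist2*), where 54.3% of all probes passed. In 3c3 it gave *Zeb1* (adjusted p = 1.2e-07), *Snai1* (adjusted p = 0.0012) and *Vim* (adjusted p = 0.0053), where 50% of all probes passed. With the slide as a replicate block, *Twist1* (adjusted p = 0.0035) and *Grhl2* (adjusted p = 0.026) passed in 3c3 as well, which made 5 of 10. *Grhl2* and *Ovol1* entered these tests only through d4 or d6, where they are high, so their share of the counts is no support. The *Vim* call over time in 3c3 was lost without replicate 1, 2 or 3 of that line (adjusted p of 0.064, 0.062 and 0.057). The *Snai1* call over time in Cl19 was lost without replicate 1 (adjusted p = 0.16) or 3 of Cl19 (adjusted p = 0.27), or replicate 2 of 3c3 (adjusted p = 0.054).

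By d4, *Zeb1*, *Vim*, *Ovol1* and *Grhl2* differed from d0 in Cl19, 4 of 10 against 47.3% of all probes, and *Zeb1* and *Snai1* in 3c3, 2 of 10 against 37.0%. With the replicate block, *Twist1* (adjusted p = 0.0083) and *Snai1* (adjusted p = 0.048) passed as well in Cl19, which made 6, and *Vim* (adjusted p = 0.0482) in 3c3, which made 3. *Ovol1* was lost at d4 with dim values raised to the lowest signal well above background (log2 change 0.87, adjusted p = 0.20). *Grhl2* and *Ovol1* entered the test only through d4 or d6, so their share of the counts by d4 and by step is no support. By step, the first 2 days moved *Zeb1* and *Vim* downwards in both lines and no other gene, 2 of 10 in each, against 22.6% of all probes in Cl19 and 19.1% in 3c3. Without the array labelled Cl19 d2 replicate 1, *Grhl2* and *Ovol1* (log2 change 1.73, adjusted p = 0.011) joined them in Cl19, which made 4 of 10. From d2 to d4, *Ovol1* (log2 change 1.83, SE 0.51, adjusted p = 0.015) and *Grhl2* rose in Cl19, 2 of 10 against 20.6% of all probes, and neither passed without that array. In the same step *Zeb1* and *Snai1* rose in 3c3, by 1.08 and 1.79, 2 of 10 against 8.71% of all probes. Both calls were lost without replicate 1 of 3c3 (adjusted p of 0.090 for *Zeb1* and 0.071 for *Snai1*) and without replicate 2 (adjusted p of 0.085 and 0.16). The *Snai1* call was also lost without replicate 3 of 3c3 (adjusted p = 0.14) or of Cl19 (adjusted p = 0.062). From d4 to d6, *Twist2* rose in Cl19, 1 of 10 against 6.95% of all probes, and *Zeb1*, *Snai1* and *Twist1* fell in 3c3, 3 of 10 against 10.5%. Without replicate 2 of 3c3 none of those 3 passed, with an adjusted p of 0.085 for *Zeb1*, and 1 of the 3 passed without replicate 1. With the replicate block, *Grhl2* also passed in that step of 3c3 (log2 change 3.10, adjusted p = 0.042).

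The lines differed in how far 5 of the 10 genes had moved by d6, where the d6 change of 17.4% of all probes differed between the lines. *Ovol1* entered the test only through d4 and d6 of Cl19, and *Grhl2* through these and d6 of 3c3, where they are high. Their share of this count is therefore no support. Without them, *Twist1*, *Twist2* and *Snai1* remain. The change in Cl19 minus that in 3c3 was 5.02 for *Grhl2* (SE 1.63, adjusted p = 0.038), 3.65 for *Ovol1* (SE 0.72, adjusted p = 0.0011), 2.42 for *Twist1* (SE 0.59, adjusted p = 0.0063), 2.23 for *Twist2* (SE 0.56, adjusted p = 0.0079) and -2.07 for *Snai1* (SE 0.69, adjusted p = 0.042). *Twist1* and *Twist2* kept this call under all 14 alternatives, with differences of 0.69 and 0.52 under the offset of 50. *Ovol1* kept it under 13 and lost it when dim values were raised to the lowest signal well above background (difference 1.43, adjusted p = 0.24). The *Snai1* difference lost its call without the filter on dim probes (adjusted p = 0.071), without replicate 1 or 3 of Cl19 (adjusted p of 0.072 and 0.18) and without replicate 2 or 3 of 3c3 (adjusted p of 0.088 and 0.23). The *Grhl2* difference lost its call without that filter (adjusted p = 0.067), in the authors' table (adjusted p = 0.058), without replicate 2 or 3 of Cl19 (adjusted p of 0.069 and 0.097) and without replicate 1, 2 or 3 of 3c3 (adjusted p of 0.073, 0.16 and 0.13). Without the array labelled Cl19 d2 replicate 1 the same difference had an adjusted p of 2.7e-04.

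The differences at d2 and d4 were computed after the values had been seen. At d2, no gene differed between the lines (limma, with 1 of 10 at an unadjusted p below 0.05, *Grhl2*), and 0.323% of all probes did. Without the array labelled Cl19 d2 replicate 1, *Grhl2* differed by 5.84 at d2 (adjusted p = 8.0e-04). At d4, *Grhl2* (6.99, SE 1.63, adjusted p = 0.0060), *Snai1* (-3.53, SE 0.69, adjusted p = 0.0015), *Ovol1* (2.31, SE 0.72, adjusted p = 0.035), *Zeb1* (-1.24, SE 0.35, adjusted p = 0.019) and *Vim* (-1.10, SE 0.36, adjusted p = 0.0467) differed, 5 of 10 where 14.4% of all probes did. The share of *Grhl2* and *Ovol1* in this count is no support, as they entered the test only through groups where they are high. The *Grhl2* and *Snai1* calls at d4 held under all 14 alternatives, those of *Zeb1*, *Vim* and *Ovol1* under 11, 9 and 5. Among the lost calls, *Ovol1* had an adjusted p of 0.18 without replicate 1 and 0.16 without replicate 2 of 3c3, *Vim* 0.18 without replicate 3 of Cl19, and *Zeb1* 0.091 without replicate 2 of Cl19.

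**Figure D3:**
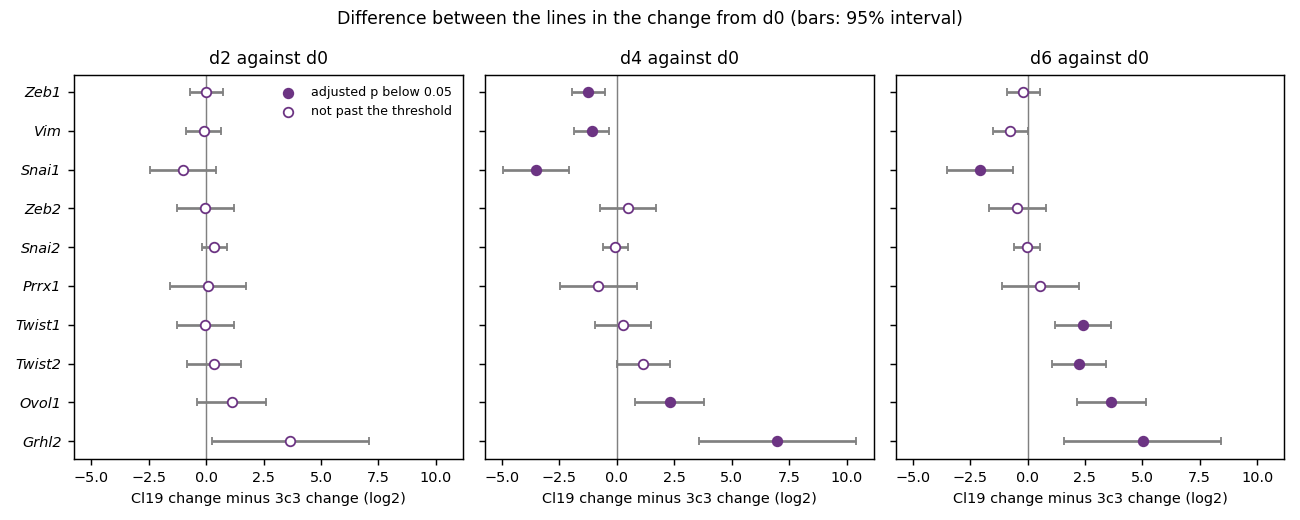
Change from d0 in Cl19 minus that in 3c3 (log2) for each gene at d2, d4 and d6, with 95% intervals from limma. Filled points passed an adjusted p of 0.05 and open points did not, with 0 genes filled at d2 and 5 at each of d4 and d6.

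Prim held the highest levels of 7 of the 10 genes. The 2 Prim arrays read 9.29 and 9.30 for *Zeb1*, 6.28 and 5.63 for *Zeb2*, 4.69 and 4.31 for *Snai2*, 10.29 and 10.25 for *Twist1*, 8.24 and 8.34 for *Twist2*, 9.86 and 9.84 for *Prrx1*, and 16.35 and 16.27 for *Vim*. None of the 24 arrays of the lines reached those levels. Against Cl19 d6, 9 of 10 genes differed, with 7 higher and 2 lower in Prim, where 71.4% of all probes differed, 32.8% higher and 38.6% lower. Against 3c3 d6, 8 of 10 differed, with the same 7 higher and 1 lower, where 71.5% of all probes differed, 33.4% higher and 38.1% lower. *Zeb2*, *Snai2* and *Prrx1* entered the test only through Prim, where they are high. Their direction was fixed by the filter on dim probes, and their share of these counts is no support. The same holds for *Ovol1*, which entered through Cl19, against Cl19 d6. *Grhl2* entered only through d4 and d6 of Cl19 and d6 of 3c3, so its share of both counts is no support either. Without these genes, 4 genes (*Zeb1*, *Vim*, *Twist1* and *Twist2*) were higher in Prim in each comparison. These comparisons share the Prim arrays. The median over all probes was -0.13 in both, and -2.17 and -2.09 in the authors' table, so changes there are to be read against that shift. Of the called probes, 45.9% and 46.7% were higher in Prim, against 55.4% and 54.7% with 75th percentile scaling and 8.3% and 9.5% in the authors' table.

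*Zeb1* was 78.1-fold higher in Prim than in Cl19 d6 (SE 0.27 on the log2 scale, adjusted p = 1.1e-13) and at least 51.1-fold higher than in 3c3 d6 (SE 0.27, adjusted p = 5.1e-13). *Vim* was 16.9-fold and 13.6-fold higher, and *Twist1* 27.6-fold and 89.9-fold. *Twist2* was 9.72-fold higher than in Cl19 d6 and at least 32.6-fold higher than in 3c3 d6. *Prrx1* was at least 235-fold and at least 130-fold higher, *Zeb2* at least 15.8-fold and 8.71-fold, and *Snai2* at least 5.77-fold and 3.18-fold. The direction was the same for these 7 genes under all 17 alternatives. One call was lost among them, for *Twist2* against Cl19 d6 in the authors' table without normalization between arrays (log2 difference 0.76, adjusted p = 0.10).

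*Grhl2* and *Ovol1* went the other way. They entered the test only through the lines, so their differences from Prim are a description and no support. The Prim arrays read 1.29 and 0.89 for *Grhl2* and 0.15 and 0.15 for *Ovol1*, none well above background. *Grhl2* was at least 57.0-fold higher in Cl19 d6 than in Prim (adjusted p = 6.1e-06) and at least 2.67-fold higher in 3c3 d6 (adjusted p = 0.0061). The 3c3 comparison lost its call with dim values raised to the lowest signal well above background (log2 difference -1.42, adjusted p = 0.18), with the offset of 50 (-0.71, adjusted p = 0.12) and with 75th percentile scaling (-2.93, adjusted p = 0.050). *Ovol1* was higher in Cl19 d6 (adjusted p = 6.1e-06), but the bound was 1.01-fold, and with dim values raised the difference was -0.02 (adjusted p = 0.98). *Snai1* read 9.37 on both Prim arrays, between the d6 levels of the lines, and passed against neither (log2 difference 0.59, adjusted p = 0.34 against Cl19, and -1.19, adjusted p = 0.056 against 3c3). Against 3c3 d6 it passed without replicate 1 or 2 of Cl19 (adjusted p of 0.042 and 0.037), without replicate 1 or 2 of 3c3 (0.036 and 0.039) and without the array labelled Cl19 d2 replicate 1 (0.037). In the authors' table without normalization between arrays, *Snai1* was lower in Prim than in Cl19 d6 (-1.83, adjusted p = 0.0023) and 3c3 d6 (-3.52, adjusted p = 2.0e-06).

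Both Prim arrays had all 9 smooth muscle markers with a probe well above background, and 5 of 8 endothelial markers (*Pecam1*, *Kdr*, *Tek*, *Tie1* and *Emcn*) were so on neither. Of 8 blood markers, *Ptprc*, *Cd68*, *Cd14* and *Tyrobp* were well above background on both Prim arrays, and *Lyz2*, *Itgam*, *Cd3e* and *Cd79b* on neither. The summed level of the blood markers was 9.85 to 9.88 in Prim, against 7.56 to 8.28 over d0 and d6 of the lines. All 8 markers of primitive endoderm were well above background on all d0 arrays of both lines, among them the *Oct4* gene *Pou5f1*. By d6, 7 of the 8 had fallen and 1 had risen in Cl19 (median change -2.46), and 5 had fallen and 1 had risen in 3c3 (median -1.20). Of 7 endothelial markers tested, 4 fell and none rose in Cl19 (median -1.88, summed level from 8.19 to 8.48 at d0 and 5.97 to 6.65 at d6), and 1 fell and 1 rose in 3c3 (median -0.25). At d6, 7 smooth muscle markers were well above background on all Cl19 arrays and 5 on all 3c3 arrays, against 6 and 5 at d0. The summed level of those markers was 10.87 to 11.14 at d0 and 15.90 to 16.16 at d6 in Cl19, and 10.54 to 10.75 and 14.83 to 15.49 in 3c3, on the log2 scale. The part that these other cell markers play in the results of the 10 genes was not tested.

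Other genes of the same circuits were read from lists of mesenchymal regulators, epithelial regulators, epithelial structural genes and mesenchymal structural genes, which leave out the 10 genes. Epithelial structural genes rose in both lines. In Cl19, 28 of 31 tested genes rose from d0 to d6 and none fell, with a median change of 2.87, and in 3c3 27 of 31 rose and none fell, with a median of 2.21. That is 90.3% and 87.1% called, where 57.6% and 53.0% of all genes tested by their brightest probe were called. *Cdh1*, the gene of E-cadherin, went from 10.30 ± 0.08 (SD, n = 3) to 13.58 ± 0.23 in Cl19 and from 9.47 ± 0.29 to 13.49 ± 0.32 in 3c3, a log2 change of 3.28 (adjusted p = 2.1e-08) and of 4.02 (adjusted p = 2.9e-09). *Epcam*, an adhesion gene of epithelia, rose by 2.87 and 2.16, and *Krt8*, a keratin of simple epithelia, by 2.95 and 2.21. The tight junction gene *Cldn7* rose by 5.71 and 6.03, and *Cldn6* by 1.72 in Cl19 with 0.35 in 3c3 (adjusted p = 0.18, after 0.95 by d2 with an adjusted p of 0.0028), a difference of 1.37 (SE 0.30, adjusted p = 0.0025). The keratin gene *Krt19* rose by 1.06 in Cl19 and by 4.22 in 3c3, a difference of -3.16 between the lines (SE 0.50, adjusted p = 1.7e-04). In Prim, *Cdh1* read 0.15 on both arrays, and it was at least 792-fold higher in Cl19 d6 and at least 746-fold higher in 3c3 d6. *Cdh1* entered the test only through the lines, so its difference from Prim is a description and no support.

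Of 27 mesenchymal structural genes tested, 16 rose and 1 fell in Cl19 (median 1.66), and 9 rose and 1 fell in 3c3 (median 0.34), or 63.0% and 37.0% called against the same 57.6% and 53.0% of all genes. *Fn1*, the gene of fibronectin, rose by 6.28 in Cl19 and 4.15 in 3c3, and *Col1a1*, a chain of type I collagen, by 7.27 and 3.53. The lines differed in both, by 2.12 for *Fn1* (SE 0.66, adjusted p = 0.030) and 3.74 for *Col1a1* (SE 0.82, adjusted p = 0.0029). *Col1a2*, the other chain of that collagen, rose by 1.64 in Cl19 (adjusted p = 0.0024), with 0.03 in 3c3 (adjusted p = 0.96). *Sparc*, a matrix glycoprotein, fell by 1.49 in Cl19 (adjusted p = 2.1e-06), with 0.02 in 3c3. *Col3a1*, at 15.17 in Prim, passed background on none of the d0 and d6 arrays of the lines, and *Cdh11*, a mesenchymal cadherin, on 1 of them. Both entered the test only through Prim, so a call between d0 and d6 was hardly possible for them. The shares called and the medians of this list include such genes. *Mmp2* changed by -0.35 and -0.33 (adjusted p of 0.40 and 0.43), and *Cdh2*, the gene of N-cadherin, by 1.66 and 2.66 (adjusted p of 0.22 and 0.0519). Earlier, *Cdh2* had risen in Cl19 by at least 3.73-fold on d2 (log2 change 3.84, adjusted p = 0.015) and at least 2.46-fold on d4 (log2 change 3.25, adjusted p = 0.020). *Cdh2* entered the test only through d4 of Cl19, where it is high, so these rises are a description and no support.

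**Figure D4:**
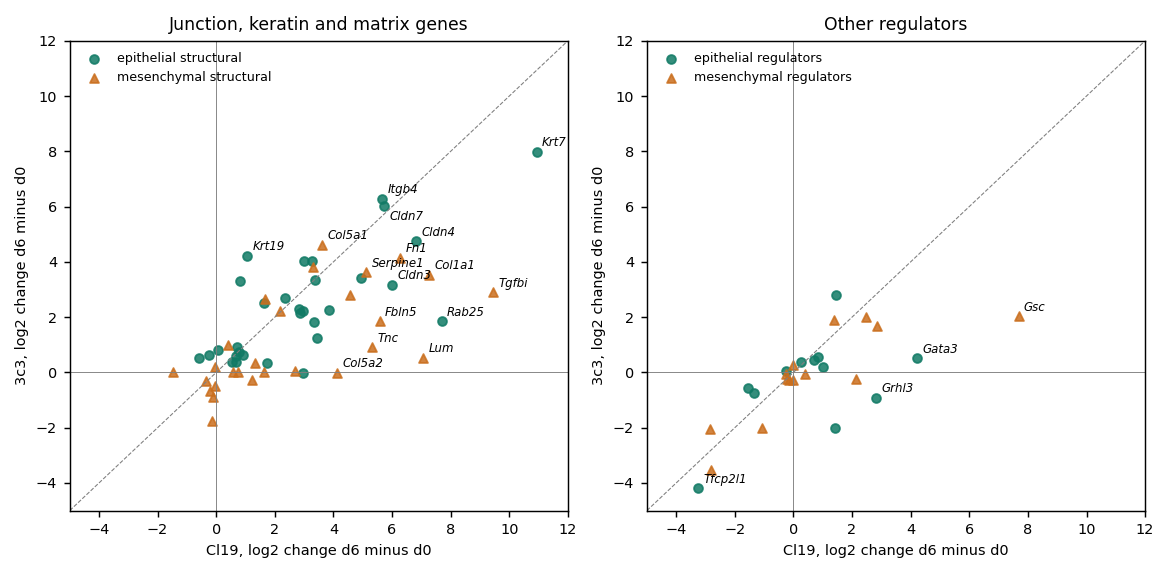
Change from d0 to d6 (log2) in Cl19 (horizontal axis) and 3c3 (vertical axis) for tested genes of the 4 lists, with epithelial genes as circles and mesenchymal genes as triangles. Labelled genes were chosen for the size of their change or of its difference between the lines, and the dashed line marks equal change. Most epithelial structural genes lie above 0 on both axes.

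Among epithelial regulators, 4 of 12 tested genes rose and 3 fell in Cl19 (median 0.75), and 1 rose and 2 fell in 3c3 (median 0.12). The share called, 58.3% in Cl19 and 25.0% in 3c3, stood beside 57.6% and 53.0% of all genes, so it was near the background in Cl19 and under it in 3c3. With each array scaled to its 75th percentile, 5 of 12 passed in 3c3. *Grhl3*, a relative of *Grhl2*, rose by 2.81 in Cl19 (adjusted p = 6.5e-05) and changed by -0.92 in 3c3 (adjusted p = 0.13, after -1.26 by d4 with an adjusted p of 0.0483), a difference of 3.73 between the lines (SE 0.69, adjusted p = 6.4e-04). *Ovol2*, a relative of *Ovol1*, was bright in both lines throughout, at 10.48 and 10.73 on d0, and its d6 changes were -0.27 and 0.05 (adjusted p of 0.29 and 0.85). In 3c3 it fell by 0.86 from d0 to d4 (SE 0.20, adjusted p = 0.0023) and rose by 0.92 from d4 to d6 (SE 0.20, adjusted p = 0.0069). *Esrp1*, a splicing factor of epithelia, changed by 0.69 and 0.46, and *Elf3* by 0.25 and 0.36 at d6, none of which passed. By d4, *Elf3* had fallen by 1.41 in 3c3 (at least 1.23-fold, adjusted p = 0.0073). *Klf4* fell by 1.34 in Cl19 (adjusted p = 0.0088), with -0.74 in 3c3 (adjusted p = 0.14). *Ovol2*, *Grhl3*, *Esrp1* and *Elf3* were all lower in Prim than at d6 of either line, with adjusted p of 2.2e-04 or less. *Grhl3*, *Esrp1* and *Elf3* were well above background on neither Prim array and entered the test only through the lines. The differences of these genes from Prim are therefore a description and no support.

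Among mesenchymal regulators, 5 of 14 tested genes rose and 3 fell in Cl19, and 3 rose and 3 fell in 3c3. The share called was 57.1% and 42.9%, near the 57.6% of all genes in Cl19 and under the 53.0% in 3c3. *Tcf4*, whose product binds E-boxes, rose by 2.48 in Cl19 (adjusted p = 3.1e-07) and by 2.00 in 3c3 (adjusted p = 7.1e-06), and its relative *Tcf3* changed by 0.40 and -0.05 (adjusted p of 0.069 and 0.86). *Hmga2*, a chromatin protein that activates SNAIL and TWIST genes, fell in both lines, by at least 3.67-fold in Cl19 (adjusted p = 3.3e-04) and at least 1.47-fold in 3c3 (adjusted p = 0.0065). *Hmga2* entered the test only through d0 of Cl19, where it is high. Its fall in Cl19 is therefore a description, and its share of the Cl19 count is no support. *Snai3*, a relative of *Snai1*, did not pass the filter on dim probes.

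The genes whose levels were most like each member are given as Pearson's r over the 26 arrays, as a description without a test, since arrays of a line and a slide share their source. *Zeb1* was followed most closely by *Fhl4* and *Dgcr6* (r of 0.96 each) and *Fto* (0.94). *Snai1* was most like *Hs1bp3* (0.90), *Gna12* (0.89) and *Rnf114* (0.87), *Grhl2* most like *Dpysl5*, *Gsc* and *Atp10d* (0.96 each), and *Ovol1* most like *Gjd2* (0.95), *Ace* and *Casr* (0.93 each). For *Twist1* they were *Yif1a*, *Nicn1* and *Btbd1* (0.95 to 0.96), for *Twist2* *Lrrc61*, *Aig1* and *Dcn* (0.96 to 0.97), and for *Vim* *Fkbp7*, *Bphl* and *Cryba4* (0.93 to 0.96). The closest genes to *Zeb2* (*Omd*, *Zfpm2*, *Cntn2*), *Snai2* (*Acan*, *Vsnl1*, *Col14a1*) and *Prrx1* (*Col8a1*, *P4ha3*, *Plekho2*) had r of 0.97 to 0.99. Over the 24 arrays of the lines alone, these 9 values ranged from -0.02 to 0.80. In the lines alone, r was also lower for *Twist1* (0.72 to 0.88), *Vim* (0.74 to 0.84), *Twist2* (0.85 to 0.88) and *Zeb1* (0.86 to 0.92). For *Snai1*, *Grhl2* and *Ovol1* it was 0.90 to 0.96.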

How the data were processed

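RNA of 24 rMAPC samples and 2 commercial aortic RNA samples was hybridised to 1-colour Agilent rat arrays. The authors scanned them with Agilent Feature Extraction 10.1.1.1, and the deposited scanner files give background-subtracted intensity per feature. A deposited log2 table holds the log2 of the same signal, without normalization between arrays (largest difference 5.2e-14). Depth does not apply to arrays, whose number limits the precision.

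Here, log2 intensities of 43379 gene features were quantile-normalized over 26 arrays, outlier features were left out, and features were averaged to 41012 probes. The 24442 probes tested were those that passed background throughout 1 or more groups. A probe counted as well above background where at least as many of its features were so as were not. One limma 3.58.1 fit (R 4.3.3) over 9 groups gave log2 changes, SE and p-values adjusted by Benjamini-Hochberg, with a threshold of 0.05. The fit assumes the same spread in all groups. Its steps were tested on simulated data. "At least" folds set dim arrays at the lowest signal well above background (log2 of 1.52 to 4.22, by array), or at the probe's own signal if higher.

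The members, lists and named examples were chosen with earlier results of these data known. Named genes were the members, set examples of each list, and the 3 genes most like each member. List and similar genes were matched by the file's gene name or by accession to RefSeq symbols (16444 probes by accession, 3701 by name, 20867 without a symbol). *Marveld3*, *Myh11* and *Grhl1* were not found by name. Replicate numbers mark slides, and same-numbered arrays deviated together (correlation over 0.1 in 6 of 6 pairs of d0 and d6, 0.108 to 0.504), so the slide was also fitted as a block. Alternatives were scaling to the 75th percentile, normexp with offset 50, the authors' log2 table, no filter, a floor on dim values, a fit per line, each replicate left out, the mean of a gene's probes, the methods' test of pairs of groups (run unpaired) and the methods' area under the curve. A gene withheld from this work is not reported here.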

Additional observations from a re-analysis of the deposited data

Results flagged for a closer look

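The change from d0 to d6 differed between the lines for 5 of the 10 genes when the difference itself was tested (limma, Benjamini-Hochberg adjustment over all tested probes), where 17.4% of all probes differed. As Cl19 minus 3c3 on the log2 scale, *Grhl2* differed by 5.02 (adjusted p = 0.038), *Ovol1* by 3.65 (adjusted p = 0.0011), *Twist1* by 2.42 (adjusted p = 0.0063), *Twist2* by 2.23 (adjusted p = 0.0079) and *Snai1* by -2.07 (adjusted p = 0.042). *Grhl2* and *Ovol1* entered the test only through groups where they are high, so their share of the 5 genes is no support. The second probes of *Twist1* and *Grhl2* differed by 3.90 (adjusted p = 8.1e-04) and 3.44 (adjusted p = 0.0044). The second *Grhl2* probe entered the test only through d6 of Cl19, where it is high, so its difference is no support for the first. The *Twist1* and *Twist2* calls held under 14 of 14 alternatives, that of *Ovol1* under 13, that of *Snai1* under 9 and that of *Grhl2* under 7.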

How the results depend on the processing

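The 7 genes called at d6 in Cl19 numbered 6 to 7 with a replicate left out, and the counts against Prim moved by 1 at most. With the slide as a replicate block, d6 against d0 still gave 7 and 2 genes and the difference 5, while calls over all probes went from 12765 to 15089 in Cl19, from 11792 to 14307 in 3c3 and from 4263 to 6007 for the difference. The block added 2 calls at d4 in Cl19 (6 in place of 4), 1 at d4 in 3c3 and 1 from d4 to d6 in 3c3. Over time, the 3c3 count went from 3 to 5 under the block, a fit per line, or without the array labelled Cl19 d2 replicate 1, and to 1 by the area method, which gave 4 in Cl19. The difference at d6 fell from 5 to 3 genes without the filter on dim probes. Without that array, Cl19 had 4 genes from d0 to d2 and 0 from d2 to d4, a step with 1 gene under 75th percentile scaling, normexp, the authors' table, no filter, the floor and a fit per line. With each replicate left out in turn, counts ranged from 1 to 3 for d6 in 3c3, 2 to 5 over time in 3c3, 3 to 5 for the difference, 2 to 4, 0 to 2 and 0 to 1 for the steps of Cl19, and 0 to 2 and 0 to 4 for the later steps of 3c3. Epithelial regulators called in 3c3 went from 3 to 5 with 75th percentile scaling. Of the single d6 changes, 22 turned sign, none of them called. In Cl19 these were *Zeb2* (0.02 with normexp, 0.08 in the authors' table), *Snai2* (0.09 in that table) and *Prrx1* (-0.40 with the floor, -0.32 to 0.65 with replicates left out). In 3c3 they were *Snai2* and *Prrx1* with 75th percentile scaling (0.18, 0.03), the authors' table (0.49, 0.34) and the floor (0.16 each), *Ovol1* with these (0.17, 0.48, 0.16) and normexp (0.04), and *Twist2* with normexp (-0.01). With replicates left out, 3c3 ranged from -0.04 to 0.66 for *Zeb2*, -0.04 to 1.07 for *Snai1*, -0.02 to 0.01 for *Snai2* and *Ovol1*, and -0.08 to 0.23 for *Twist2*. The causes were not tested. Where d0 or Prim arrays did not pass background, changes are known as bounds only.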
